A study of Heterocephalus glaber and Cavia porcellus and Spalacopus cyanus with 7 samples.

Results

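The 4 PIWI genes (Piwil1, Piwil2, Piwil3 and Piwil4) and 3 genes of direct partners of their proteins (Gtsf1, Mael and Asz1) were followed in the oocytes of guinea pig and naked mole-rat. The 7 genes were chosen by symbol, matched without regard to case. Each had a single entry among 25603 entries of the guinea pig table and among 26623 entries of the naked mole-rat tables. Total RNA of oocytes was depleted of ribosomal RNA and sequenced from directional libraries as 150 bp paired-end reads. The guinea pig library held the merged oocytes of 3 females aged 6 to 9 months, and each of the 5 naked mole-rat libraries came from 1 female, the group being 1 to 8 years old. The oocytes were fully grown or late in growth and had been stripped of cumulus cells with a pipette. The sources used here name no treatment, strain or genotype. A coruro library of the series was not used here, since its counts cover Dnmt3 genes only.

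PIWI proteins are germline Argonaute proteins that carry small RNAs known as piRNAs and use them to find and silence transposon transcripts. In mouse, Piwil1 and Piwil2 act in the cytoplasm of male germ cells and Piwil4 acts in the nucleus of fetal male germ cells, where it directs DNA methylation to transposons, and female mice that lack PIWI genes stay fertile. Mouse and rat have no Piwil3 gene. Golden hamster has one, and both PIWIL1 and PIWIL3 carry piRNAs in its oocytes. Gtsf1 encodes a small zinc finger protein that helps PIWI proteins to cut their targets, Mael a protein of the perinuclear granules where piRNAs are made, and Asz1 a protein of the outer mitochondrial membrane that holds this machinery in place.

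Counts assigned to genes totalled 24515642 in the guinea pig library and 13512223 to 29561451 in the naked mole-rat libraries, and levels are given as counts per 1000000 of these totals (CPM). For a gene with no count the limit is 3 counts, which is 0.122 CPM in guinea pig and 0.101 to 0.222 CPM in naked mole-rat. CPM is not corrected for transcript length, so that a level compares a gene between libraries of a species and not different genes. Each species was counted on its own genome. Folds between the species therefore hold as far as the orthologues and their entries are of like length, which was not tested. Intervals for the guinea pig library are 95% exact intervals and cover counting error only, not differences between animals. With 1 guinea pig library no test between the species is possible. Of 30 listed oocyte genes, 23 had an entry in both species, and they summed to 15760 CPM in guinea pig and 5987 to 13389 CPM in naked mole-rat. The egg coat gene Zp3 had 2227 CPM in guinea pig and 1555 ± 578 CPM in naked mole-rat (SD, n = 5). Naked mole-rat replicate 1 stood apart, with 7088 CPM over 17 granulosa cell genes, against 1179 to 2357 CPM in replicates 2 to 5, and with the lowest oocyte sum. The granulosa sum was 995 CPM in guinea pig, below all 5 naked mole-rat libraries, although all 17 genes had counts there. The 9 stroma genes summed to 378 CPM in guinea pig and 6.12 to 194 CPM in naked mole-rat, and the 7 endothelial genes to 591 CPM in guinea pig and 107 to 279 CPM in naked mole-rat. Both sums were highest in guinea pig, and the part of other cell types in the differences between species was not tested.

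The make-up of PIWI transcripts differed between the species. In guinea pig, Piwil1 and Piwil3 made up nearly all PIWI counts in about equal parts. In naked mole-rat, Piwil3 led in all 5 libraries, Piwil2 came next and Piwil1 was a minor part. Transcript lengths, which the sources used here do not give, enter these shares of counts. For a given gene they can be compared between species as far as the orthologues are of like length.

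Piwil1 took 50.4% of the 14851 PIWI counts in guinea pig (95% Clopper-Pearson interval 49.6 to 51.2%). In naked mole-rat it took 8.23, 4.94, 7.11, 5.14 and 12.9% in replicates 1 to 5, or 7.66 ± 3.23% (SD, n = 5). The guinea pig share was far above the whole naked mole-rat range. Piwil2 went the other way, with 0.808% in guinea pig (0.670 to 0.965%) and 27.8, 20.4, 19.8, 14.2 and 29.9% in naked mole-rat replicates 1 to 5, a mean of 22.4 ± 6.39% (SD, n = 5). Piwil3 took 48.8% in guinea pig (48.0 to 49.6%) and 62.7, 73.7, 72.1, 79.2 and 56.8% in naked mole-rat replicates 1 to 5, with a mean of 68.9 ± 9.002% (SD, n = 5). Its share in guinea pig was thus below every naked mole-rat library, although its level was not. Piwil4 was the smallest part everywhere, at 0.00673% in guinea pig, from a single count (0.000170 to 0.0375%), and 1.02 ± 0.417% in naked mole-rat (SD, n = 5). Together the 4 genes had 606 CPM in guinea pig and 311 ± 120 CPM in naked mole-rat, where the libraries ran from 138 CPM in replicate 1 to 437 CPM in replicate 2.

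**Figure D1:**
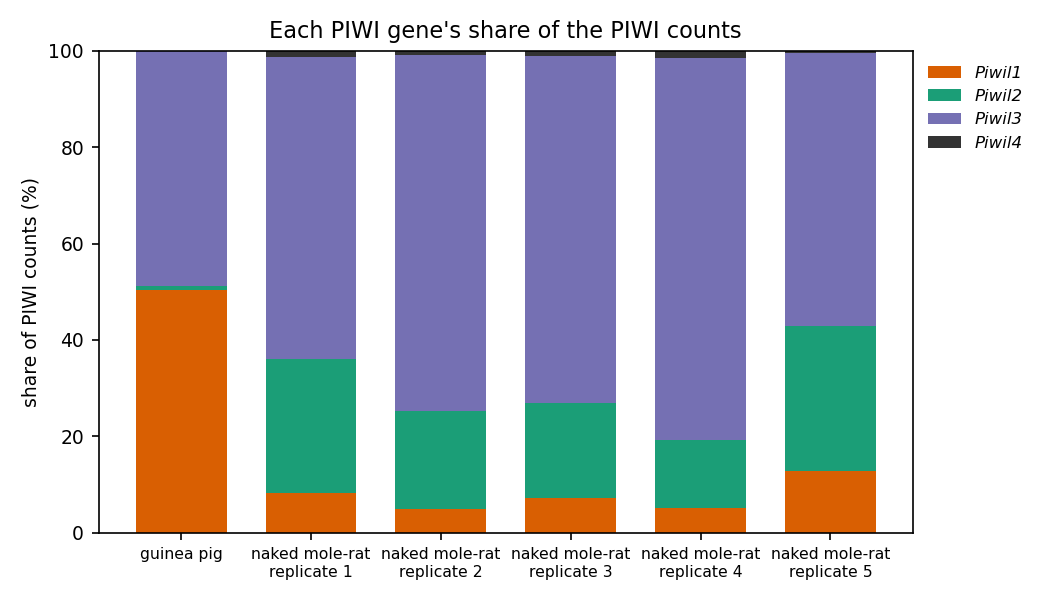
Share of each PIWI gene in the summed PIWI counts, in percent, in the guinea pig library and in naked mole-rat replicates 1 to 5. Piwil1 fills 50.4% of the guinea pig bar and 4.94 to 12.9% of the naked mole-rat bars, while Piwil2 fills 0.808% in guinea pig and 14.2 to 29.9% in naked mole-rat.

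Of the PIWI genes, Piwil1 was the one that was much higher in guinea pig. In mouse its protein, MIWI, binds the abundant piRNAs of meiotic and post-meiotic male germ cells. Piwil1 had 305 CPM in guinea pig (299 to 312), and 11.3, 21.6, 26.6, 18.7 and 31.0 CPM in naked mole-rat replicates 1 to 5. Every naked mole-rat library lay below guinea pig, and replicate 1 was the lowest. The guinea pig level was 13.98 times the naked mole-rat mean of 21.9 ± 7.54 CPM (SD, n = 5; counting interval 13.7 to 14.3) and 9.86 times the highest naked mole-rat library. By count, 602 entries were above Piwil1 in guinea pig, and 5943 to 10296 entries were above it in naked mole-rat.

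Piwil2 was much lower in guinea pig. Its mouse protein, MILI, takes part in the cycle of cuts by which piRNAs and transposon transcripts amplify each other. Piwil2 had 4.89 CPM in guinea pig (4.06 to 5.85), and 38.2, 89.0, 74.3, 51.6 and 71.8 CPM in naked mole-rat replicates 1 to 5. The groups did not overlap, and the lowest naked mole-rat library still had 7.80 times as much as guinea pig. The naked mole-rat mean was 65.0 ± 20.04 CPM (SD, n = 5), or 13.3 times that in guinea pig.

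Piwil3, the paralogue that mouse and rat lack, was abundant in both species. It had 295 CPM in guinea pig (289 to 302), and 86.3, 322, 270, 289 and 136 CPM in naked mole-rat replicates 1 to 5. The guinea pig level lay inside the naked mole-rat range, between replicates 4 and 2. It was 1.34 times the naked mole-rat mean of 221 ± 103 CPM (SD, n = 5), a difference smaller than the spread between naked mole-rat females. Without replicate 2 guinea pig would lie above the other 4 libraries. On a scale set by the oocyte genes in place of the library total, the log2 difference was -0.058, against 0.42 on library totals.

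Piwil4, whose mouse protein MIWI2 acts in the nucleus, was low in naked mole-rat and at the limit of detection in guinea pig. Its single guinea pig count corresponds to 0.0408 CPM (0.00103 to 0.227), below the 0.122 CPM of 3 counts. In naked mole-rat it had 1.78, 4.18, 3.77, 5.31 and 0.880 CPM in replicates 1 to 5, from 24 to 149 counts, so that all 5 libraries were above the guinea pig interval. The ratio of guinea pig to the naked mole-rat mean was 0.0128, with a counting interval of 0.000324 to 0.0714. At this depth it was not detectable whether Piwil4 is transcribed in guinea pig oocytes.

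**Figure D2:**
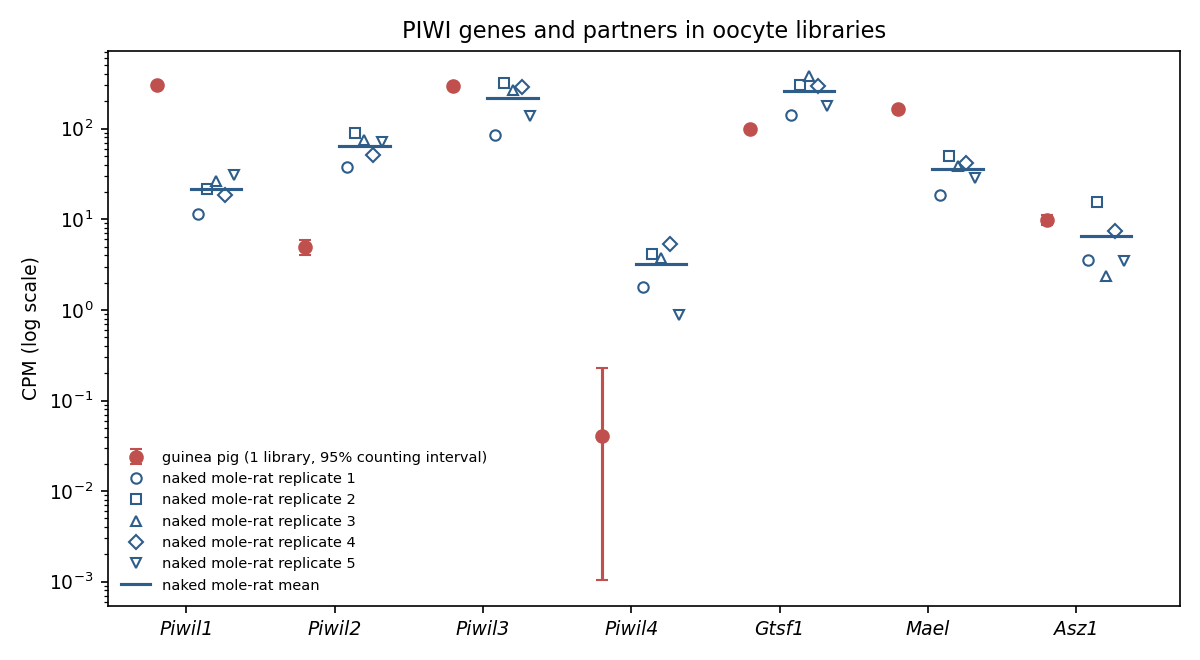
Level of each gene in CPM on a log scale, for the guinea pig library (filled circle with its 95% counting interval) and for 5 naked mole-rat libraries (open symbols, with a bar at their mean). Guinea pig is above all naked mole-rat libraries for Piwil1 and Mael, below all of them for Piwil2, Piwil4 and Gtsf1, and inside their range for Piwil3 and Asz1.

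Guinea pig lay above every naked mole-rat library for Mael, below every library for Gtsf1 and within their range for Asz1. Of the matched entries tested below, 37.2% lay above every library and 29.1% below. Neither Mael nor Gtsf1 passed the fold rule given there. Mael had 166 CPM in guinea pig (161 to 171), and 18.5, 50.1, 38.4, 42.1 and 28.3 CPM in naked mole-rat replicates 1 to 5. This was 4.68 times the naked mole-rat mean of 35.5 ± 12.3 CPM (SD, n = 5) and 3.31 times the highest library. Gtsf1 had 99.4 CPM in guinea pig (95.5 to 103), and 141, 307, 382, 300 and 178 CPM in naked mole-rat replicates 1 to 5. All naked mole-rat libraries were above guinea pig, by 1.42 times in the lowest of them, and their mean of 262 ± 99.6 CPM (SD, n = 5) was 2.63 times that in guinea pig. Asz1 had 9.87 CPM in guinea pig (8.67 to 11.2), and 3.55, 15.6, 2.39, 7.38 and 3.48 CPM in naked mole-rat replicates 1 to 5. The guinea pig value lay between naked mole-rat replicates 4 and 2, and it would be above the rest without replicate 2.

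To place these differences, the same fold rule was run over 10279 entries matched by symbol whose counts reached 100 in the guinea pig library or in all 5 of naked mole-rat. An entry was called higher where guinea pig had at least 4 times the highest naked mole-rat library, and lower where guinea pig had at most the level of the lowest divided by 4. By this rule 8.95% of the entries were called higher and 8.35% lower. Of the entries tested, 2656 met the minimum through guinea pig alone, and these made up 692 of the 920 higher calls. Such an entry reached 100 counts in guinea pig and fell short of 100 in some naked mole-rat library. That favours a higher call but does not fix it. Of the 7 genes, 6 had enough counts, Piwil4 being the exception and Asz1 having met the minimum through guinea pig alone, and of these 6 the rule called Piwil1 higher and Piwil2 lower. Guinea pig was above every naked mole-rat library for 2 of the 6 (Piwil1 and Mael), against 37.2% of all entries, and below every library for 2 (Piwil2 and Gtsf1), against 29.1%. The median log2 difference, guinea pig over naked mole-rat with 0.5 CPM added to both, was 0.49 over the 6 genes and 0.12 over all entries. Single values were 3.77 for Piwil1 and -3.60 for Piwil2, and 95.7% and 5.13% of all entries had a lower value. Calls of this kind compare the libraries and have no replicate check on the guinea pig side. Without naked mole-rat replicate 1, whose granulosa sum was the highest, 1420 entries were called higher, against 920 with it, and the calls of Piwil1 and Piwil2 stood.

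Ratios of genes within a library do not depend on the library total or on the scaling between species. The count ratio of Piwil1 to Piwil2 was 62.4 in guinea pig and 0.338 ± 0.0717 in naked mole-rat (SD, n = 5). On the log2 scale this ratio was 5.96 in guinea pig (counting interval 5.70 to 6.24), and it lay between -2.04 and -1.21 in naked mole-rat, a difference of 7.55 from their mean, or 187-fold. Both genes contribute to it, in opposite directions. Piwil1 to Piwil3 was 1.03 in guinea pig and 0.118 ± 0.0668 in naked mole-rat (SD, n = 5), a 9.83-fold difference of log2 means. Piwil2 to Piwil3 was 0.0166 in guinea pig and 0.340 ± 0.141 in naked mole-rat (SD, n = 5), 19.0-fold lower in guinea pig. For these 3 pairs guinea pig lay outside the naked mole-rat range with its whole counting interval. The pairs with Piwil4 rest on its single guinea pig count. For Piwil1 over Piwil4 and Piwil3 over Piwil4 the guinea pig intervals still lay above the naked mole-rat range, and for Piwil2 over Piwil4 the interval of 4.401 to 12.2 on the log2 scale overlapped the naked mole-rat values of 3.28 to 6.32.

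Set against the PIWI sum of the same library, Mael was the steadiest partner. Mael to the PIWI sum was 0.274 in guinea pig and 0.117 ± 0.0115 in naked mole-rat (SD, n = 5), which is a log2 difference of 1.23 against an SD of 0.14 between females. Gtsf1 to the PIWI sum was 0.164 in guinea pig and 0.862 ± 0.152 in naked mole-rat (SD, n = 5), 5.19-fold lower in guinea pig on the log2 means. Both parts of this ratio contribute. The naked mole-rat mean of Gtsf1 was 2.63 times the guinea pig level, and the PIWI sum was 606 CPM in guinea pig against a mean of 311 CPM in naked mole-rat. Asz1 to the PIWI sum was 0.0163 in guinea pig and 0.0205 ± 0.0111 in naked mole-rat (SD, n = 5), so the species differed by less than the spread between females.

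**Figure D3:**
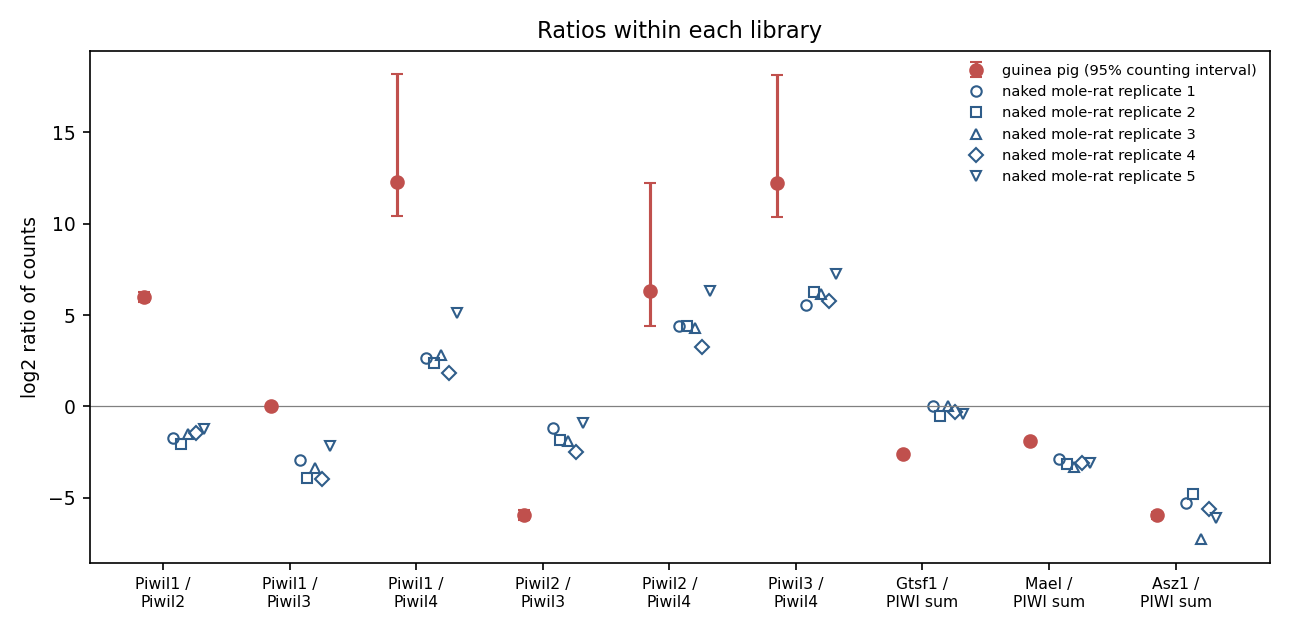
Log2 ratio of counts within each library, for the 6 pairs of PIWI genes and for each partner over the PIWI sum, with guinea pig as a filled circle (95% counting interval) and naked mole-rat replicates as open symbols. Piwil1 over Piwil2 is 5.96 in guinea pig and -2.04 to -1.21 in naked mole-rat, and the wide intervals of the pairs with Piwil4 come from 1 count.

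Among the naked mole-rat females, most of the 7 genes were lowest in replicate 1. Piwil1, Piwil2, Piwil3, Gtsf1 and Mael were lowest there, Piwil4 in replicate 5 and Asz1 in replicate 3. The oocyte sum was also lowest in replicate 1 and the granulosa sum highest. CPM is relative to the library total, so that fewer oocytes, less RNA per oocyte and more RNA of other cells cannot be told apart. Per 1000 counts of the oocyte list, Piwil1 had 19.4 in guinea pig and 1.55 to 2.42 in naked mole-rat, and Piwil2 had 0.311 in guinea pig and 4.29 to 6.73 in naked mole-rat. On this scale the highest naked mole-rat library had 1.55 times the lowest for Piwil1, against 2.74 times in CPM, and 1.57 times for Piwil2, against 2.33 times in CPM. The same ratio was 2.30 for Piwil3, against 3.73 in CPM, 1.70 for Mael, against 2.71, and 5.39 for Asz1, against 6.53. It moved little for Gtsf1, at 2.496 against 2.71, and was wider for Piwil4, at 6.43 against 6.04.

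Replicate 5 stayed low on that scale for several of the genes. Piwil3 had 14.4, 24.1, 24.5, 24.0 and 10.6 per 1000 oocyte list counts in naked mole-rat replicates 1 to 5, so that replicates 2, 3 and 4 were nearly equal and replicate 5 was the lowest. Piwil4 had 0.297, 0.312, 0.341, 0.441 and 0.0686 in replicates 1 to 5, and replicate 5 was again far below the others. Gtsf1 and Mael were also lowest in replicate 5, at 13.9 and 2.21, against 23.0 to 34.6 for Gtsf1 and 3.09 to 3.75 for Mael in the others. Piwil1, by contrast, was highest in replicate 5, at 2.42. The granulosa sum of replicate 5 was 2357 CPM, the highest after replicate 1, and its part in these values was not tested. Replicates 2 and 3 carry the letter Y in their labels and replicates 4 and 5 the letter O, with no explanation in the sources used here. No comparison by letter was made.

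**Figure D4:**
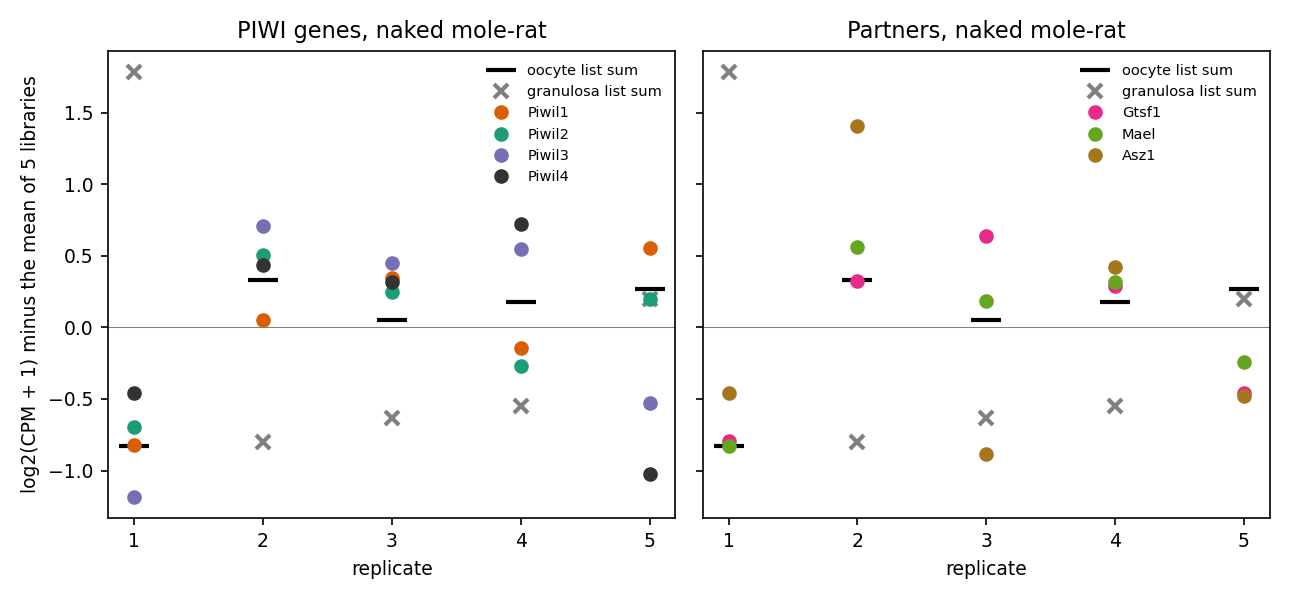
Level of each gene in naked mole-rat replicates 1 to 5 as log2(CPM + 1) minus the mean of the 5 libraries, for PIWI genes on the left and partners on the right, with the summed oocyte genes (black dashes) and granulosa genes (grey crosses). Replicate 1 is low for most genes where the granulosa sum is high, and replicate 5 is low for Piwil3, Piwil4 and Gtsf1 but high for Piwil1.

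The spread between females was below the median of entries of similar level for Piwil1, Piwil2, Piwil4 and Mael, and above it for Piwil3, Gtsf1 and Asz1. The coefficient of variation of CPM was 34.5% for Piwil1, 30.8% for Piwil2 and 34.7% for Mael, where entries within 2-fold of their mean levels had medians of 42.3, 31.3 and 36.2%. Piwil3 varied more, at 46.7% against a median of 28.2%, and 89.6% of 1980 entries of similar level varied less. Gtsf1 varied by 38.1% against 28.3%, and 79.5% of 1644 entries of similar level varied less. Piwil4 varied by 57.0% against 85.3%. Asz1 had the widest spread of the 7, at 84.0% against 68.6%, and replicate 2 carried much of it: without that library it was 52.0%.

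By counts, the order of the genes in naked mole-rat was Gtsf1, Piwil3, Piwil2, Mael, Piwil1, Asz1 and Piwil4, and in guinea pig Piwil1, Piwil3, Mael, Gtsf1, Asz1, Piwil2 and Piwil4. This is an order of counts, which hold transcript length, and not of transcript numbers. It was read from the same libraries, and no test of it is given. In naked mole-rat, counts of Piwil3 over Piwil2, Piwil2 over Mael and Piwil1 over Asz1 kept this order in 5 of 5 libraries, with mean log2 ratios of 1.66 ± 0.62, 0.89 ± 0.38 and 2.02 ± 1.26 (SD, n = 5). Gtsf1 over Piwil3, Mael over Piwil1 and Asz1 over Piwil4 kept it in 4 of 5 libraries, with mean log2 ratios of 0.31 ± 0.32, 0.70 ± 0.55 and 0.93 ± 1.09 (SD, n = 5).

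The genes whose levels followed those of the 7 most closely over the 5 naked mole-rat libraries were found by the root mean square difference of centred log2(CPM + 1), among 7836 entries with at least 100 counts in every library. With 5 libraries, which share depth and cell make-up, many entries come close, and the values are a description only. For Piwil3 the closest were Mybl1 at 0.0624 and Sytl2 at 0.0629, practically level, and then Ttll7 at 0.073, where the median over all entries was 0.79. Mybl1 encodes A-MYB, the transcription factor that in mouse spermatocytes drives piRNA precursors and several piRNA pathway genes. It had 98.8 CPM in guinea pig, and 49.7, 182, 144, 157 and 69.5 CPM in naked mole-rat replicates 1 to 5, low in replicates 1 and 5 as Piwil3 was. Closest to Piwil1 was Scyl3 at 0.028, to Piwil2 Nipal3 at 0.052, to Gtsf1 Arhgap29 at 0.036 and to Mael Xrcc2 at 0.058. Piwil4 and Asz1 had too few counts to be compared in this way.

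Other genes of the pathway were taken from a list of 28, all of which had an entry in both species. Of these, 23 reached 1 CPM in guinea pig and 19 reached it in every naked mole-rat library. The second demand is the stricter, as it must be met in every library at once. These numbers are therefore not a comparison of the species. Of 23 with enough counts for the fold rule, 4 were called higher in guinea pig and 0 lower, against 8.95% and 8.35% of all entries. Of the 23, 7 met the count minimum through guinea pig alone, among them Tdrd15 and Btbd18, which are 2 of the 4 calls. Guinea pig was above every naked mole-rat library for 14, against 37.2% of all entries, below every library for 2, against 29.1%, and inside the range for 7. The counts and the median log2 difference of 1.36 over the 23 hold this entry condition and describe the genes that passed it. On a scale set by the oocyte genes, 10 were above the range and 5 below it, against 18.5% and 38.6% of all entries. On that scale 3 were called higher and 1, Fkbp6, lower, against 4.86% and 11.5%.

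The 4 calls included the enzyme that trims piRNAs and its scaffold. Pnldc1, the exonuclease that trims the 3′ ends of piRNA precursors, had 675 CPM in guinea pig, and 16.8, 41.9, 25.7, 36.1 and 34.8 CPM in naked mole-rat replicates 1 to 5. The guinea pig level was 16.1 times the highest naked mole-rat library. Tdrkh, the Tudor domain protein on mitochondria that brings Pnldc1 to its substrates, had 647 CPM in guinea pig, and 47.9, 142, 95.01, 114 and 154 CPM in naked mole-rat replicates 1 to 5. At 4.204 times the highest library it passed the rule narrowly, and it failed with the median of all entries set to 0 and on the oocyte scale. Btbd18, a nuclear factor needed in mouse testis for transcription of some piRNA clusters, had 60.7 CPM in guinea pig and 0 to 1.48 CPM in naked mole-rat, where replicate 3 had no count. Tdrd15, a further Tudor domain gene, had 5.26 CPM in guinea pig from 129 counts and 0 counts in all 5 naked mole-rat libraries. The guinea pig level was 23.7 times the 0.222 CPM that 3 counts make in the shallowest naked mole-rat library. Whether reads can be assigned to the naked mole-rat entry was not tested.

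Other genes of piRNA processing are named here with their values seen. Mov10l1, the helicase that feeds precursors into processing, had 53.3 CPM in guinea pig and 10.6 ± 5.20 CPM in naked mole-rat (SD, n = 5). Exd1, which helps to make piRNAs in mouse testis, had 188 CPM in guinea pig and 37.2 ± 15.6 CPM in naked mole-rat, and the helicase and Tudor domain gene Tdrd12 had 226 CPM in guinea pig and 57.8 ± 18.1 CPM in naked mole-rat (SD, n = 5). Guinea pig was above every naked mole-rat library for these 3 genes, but by less than 4 times the highest. Mov10l1 would be called higher without replicate 2, and Exd1 without replicate 3. Henmt1, which methylates the trimmed 3′ end, had 229 CPM in guinea pig and 439 ± 165 CPM in naked mole-rat (SD, n = 5), with guinea pig inside the range. Fkbp6, a co-chaperone gene of the pathway, had 23.3 CPM in guinea pig and 126 ± 47.6 CPM in naked mole-rat (SD, n = 5), and it was called lower only without replicate 1, on the oocyte scale or at 2-fold. The germline helicase gene Ddx4 had 80.2 CPM in guinea pig and 31.0 ± 19.0 CPM in naked mole-rat (SD, n = 5), and here the oocyte scale put guinea pig inside the naked mole-rat range.

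**Figure D5:**
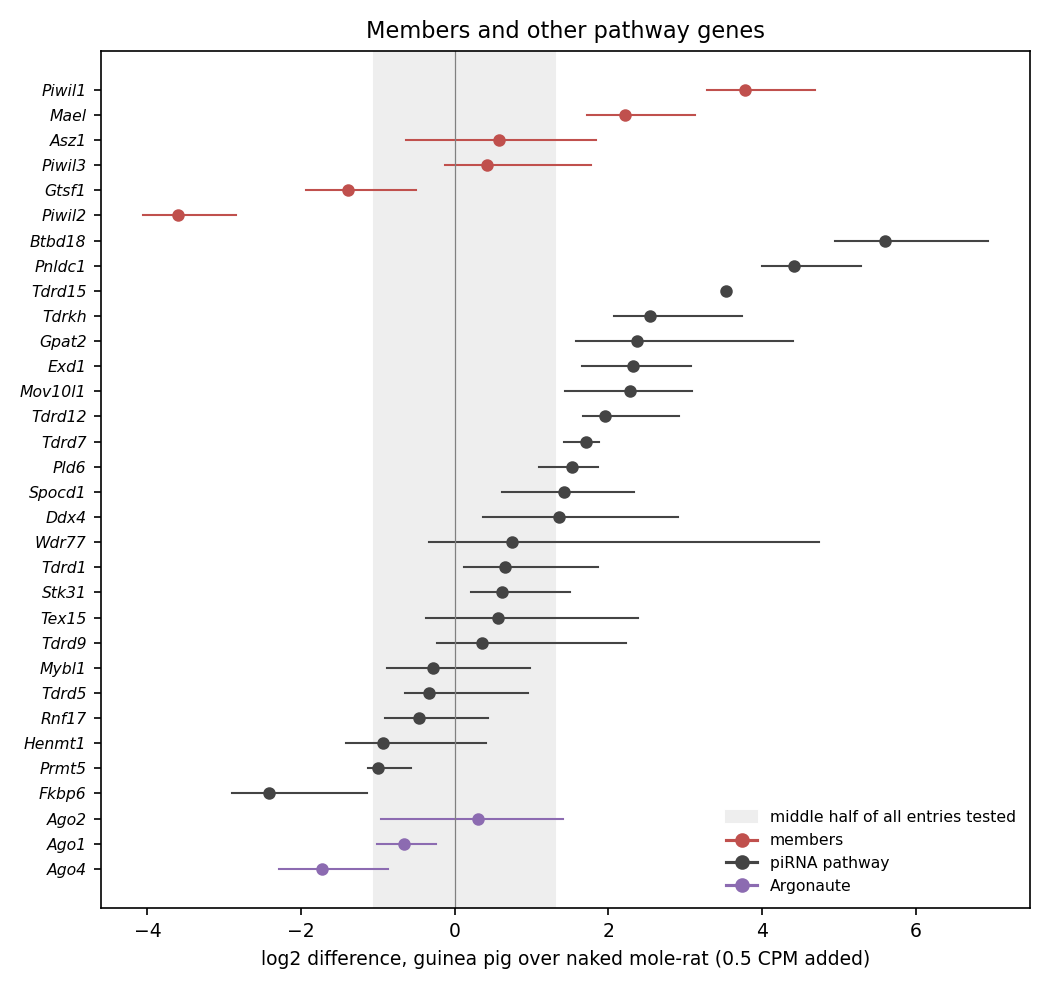
Log2 difference of guinea pig over naked mole-rat (0.5 CPM added) for 6 of the 7 genes, 23 other pathway genes and 3 Argonaute genes with enough counts. Points use the naked mole-rat mean, lines run from the highest to the lowest naked mole-rat library, and the grey band holds the middle 50% of all 10279 entries. Piwil1 is at 3.77 and Piwil2 at -3.60, on opposite sides of the band.

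Spocd1 and Tex15, which in mouse act with Piwil4 in DNA methylation of transposons, had counts in all 6 libraries. Morc1, a further gene of transposon silencing in male germ cells, had 0 counts in guinea pig and 0 to 7.33 CPM in naked mole-rat. Spocd1 had 35.3 CPM in guinea pig and 12.9 ± 6.18 CPM in naked mole-rat (SD, n = 5), and Tex15 had 199.95 CPM in guinea pig and 135 ± 84.3 CPM in naked mole-rat (SD, n = 5). Nanos2, a regulator of male germ cells, and Gtsf1l, a relative of Gtsf1, had 0 counts in all 6 libraries. Of the Argonaute genes, which serve the microRNA and siRNA pathways, 3 had an entry in both species and 0 were called, against 8.95% of all entries called higher and 8.35% lower. Guinea pig was below every naked mole-rat library for 2 of the 3, Ago1 and Ago4, against 29.1% of all entries. Ago1 had 77.6 CPM in guinea pig and 123 ± 30.4 CPM in naked mole-rat (SD, n = 5). Ago2 had 121 CPM in guinea pig and 97.8 ± 78.7 CPM in naked mole-rat (SD, n = 5), and replicate 1, the library with the highest granulosa sum, had 235 CPM against 45.0 to 93.3 CPM in the others. Ago4 had 8.85 CPM in guinea pig and 30.4 ± 11.6 CPM in naked mole-rat (SD, n = 5).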

How the data were processed

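Reads were trimmed by the authors with Trim Galore (0.6.2 in the methods, 0.6.1 in the submitters' processing notes), mapped with HISAT2 (2.0.5 or 2.1.0) to Cavpor3.0 or HetGla_female_1.0 and counted with SeqMonk 1.47.2, and the authors deposited raw counts per gene entry. The sources used here do not give the annotation or the treatment of strand and multiply mapped reads, so reads shared with overlapping genes cannot be told apart. Counts were divided by column totals. With 1 guinea pig library no count model was fitted, and edgeR 4.0.16 (TMM) and DESeq2 1.42.0 (size factors) served only as alternative scalings. Python 3.11.15 and scipy 1.17.1 gave exact Poisson and Clopper-Pearson intervals. The fold rule was also run on counts simulated from naked mole-rat means with large planted changes. Differences between species in annotation or cell make-up were not simulated, so that run does not check the rule on these libraries. Entries were matched by symbol, without repeated symbols, LOC numbers and 26 symbols per table that look like dates, which left 15082. Named are the 7 genes, listed pathway and Argonaute genes that passed the rule or had the highest or lowest CPM of their list, and the closest entries by profile. Fkbp6, Mov10l1, Exd1, Tdrd12, Ddx4, Spocd1, Tex15, Prmt5, Morc1 and Nanos3 were added after their values were seen. The genes, lists and rules were chosen with earlier results of these data known. Naked mole-rat libraries are separate females, with a chi-square per entry of 50.6 to 190 between libraries among replicates 2 to 5. It was 305 to 517 in pairs with replicate 1, whose counts were deposited apart from the others. Alternatives covered totals, scaling between species, fold, count minimum, pseudocount, detection and leaving out each replicate. No sequence or transcript length was used.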

Additional observations from a re-analysis of the deposited data

Results flagged for a closer look

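The highest or lowest of the 5 naked mole-rat libraries was compared with the next one, as the distance between them over the whole range. Of 54 values of this kind, 8 stood apart, where chance gives about 2.7 for independent values. None of them was a level, share or ratio of the 7 genes. Replicate 1 was far above the others for the summed granulosa genes (0.801, at 7088 CPM), the summed stroma genes (0.840, at 194 CPM against 6.12 to 36.2 CPM) and the summed immune genes (0.819, at 114 CPM against 7.002 to 26.3 CPM). It was also far above for Ago2 (0.745) and for Morc1 (0.825), a gene of transposon silencing in male germ cells, at 7.33 CPM against 0 to 1.28 CPM. For Nanos3 the value was 1 because replicate 1 alone had counts. Replicate 2 was highest for Mov10l1 (0.711), at 19.5 CPM against 5.85 to 9.78 CPM, and replicate 4 was lowest for Prmt5 (0.823), the arginine methyltransferase that marks PIWI proteins, at 45.9 CPM against 63.7 to 67.6 CPM.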

How the results depend on the processing

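Of 363 values under alternatives, 340 were labelled unchanged, and 0 turned a call round. Unchanged values kept their direction or their side of the rule, or moved by less than the spread between females. Counts of entries and coefficients of variation had to stay within a set factor. Many of these labels were fixed in advance, so the number unchanged does not measure how firm the results are. Leaving out 1 of 5 libraries always moves a mean level, share or log2 ratio by less than the SD, and the pseudocount does not enter the calls. Piwil1 was called higher under every alternative. On the scale of the oocyte genes the median of all entries shifted by -0.70 on the log2 scale, 500 entries were called higher, so that 29.8% of calls were higher against 51.7% on library totals, Piwil3 had a log2 difference of -0.058, and 1 pathway gene, Fkbp6, was called lower. Setting the median to 0 shifted it by -0.12. At 2-fold, 1906 entries were called higher and 1555 lower, with 10 and 1 of the pathway list, and 2 of the 7 genes were called higher, Mael (2.21) joining Piwil1. At 8-fold, 467 entries were higher and 510 lower, and Piwil2 (-3.60) was no longer called, which left 0 of the 7 lower. With no count minimum 1528 entries were higher, and there and at 20 counts Piwil4 (-2.77) joined Piwil2, so that 2 of the 7 were lower. Leaving out each replicate gave 933 to 1420 entries higher, with 1420 without replicate 1, and 0 to 1 pathway genes lower. Without replicate 1 the coefficient of variation was 22.2% for Piwil1 and 22.8% for Mael. No paired analysis was possible because the libraries of the species come from different animals. Shares and ratios per kilobase were not run, as no transcript length was at hand. Depth limits Piwil4 in guinea pig, which rests on 1 count.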
